A study of Mus musculus with 14 samples.

Results

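The genes described here are 10 mouse genes of the DNA double-strand break checkpoint: Atm, the break sensors Rad50, Nbn, Rad17, Rad1 and Hus1, the checkpoint kinases Chek1 and Chek2, and the chromatin factors Trp53bp1 and H2ax. They were taken by symbol, with every probe set that the platform annotation gives to 1 of these symbols. This gave 12 probe sets of the 12488 on each array, or of 12422 without the control probe sets. Hus1 has 3 probe sets and each of the other 9 genes has 1.

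RNA labelled as murine lymph node was hybridised to 14 one-colour Affymetrix arrays in 6 groups. The KO arrays came from Atm-/- tissue that was untreated (3 arrays), taken 30 min after ionizing radiation (IR, 2 arrays) or taken 120 min after IR (2 arrays). The WT arrays came from Atm+/+ tissue in the same 3 states, again with 3, 2 and 2 arrays. The sources used here do not give the radiation dose, the strain, the age of the mice, the way Atm was disrupted or the cells that carry the disruption. Since no label says whether the arrays of a group come from different mice, p-values refer to the spread among these arrays alone, which may be technical.

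A double-strand break is first bound by the MRN complex, in which Rad50 is the ATPase that bridges DNA ends and Nbn is the subunit that recruits Atm. Atm then phosphorylates the histone variant H2ax around the break, the adaptor Trp53bp1 binds that chromatin, and Atm activates the kinase Chek2. Single-stranded DNA is sensed through a second branch, in which the clamp loader Rad17 places the clamp made of Rad9, Rad1 and Hus1 on DNA and the kinase Atr activates Chek1. Most of this signalling acts by phosphorylation of proteins that are already present, and lymphocytes also use it for the breaks made during antigen receptor rearrangement.

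No member passed the test in any comparison. The test was limma on log2(value + 32) with p adjusted over the 8916 tested probe sets, and the smallest adjusted p of a member was 0.288. That value belonged to Hus1 probe set 92504_at, which was higher by 0.98 ± 0.25 (log2, SE) in KO than in WT over the 3 conditions. The difference was 0.78 without KO replicate A at 30 min, and the other Hus1 probe sets were too low to be tested. Rad50 was higher by 0.57 ± 0.17 in KO arrays at 120 min after IR than in untreated KO arrays, with an adjusted p of 0.597 by limma. H2ax was lower by a log2 change of -0.60 ± 0.20 in WT arrays at 30 min and -0.55 ± 0.20 at 120 min, each against untreated WT arrays, with adjusted p of 0.827 and 0.480 by limma. The 95% intervals of the 4 Chek2 responses to IR covered folds of 0.817 to 1.669. With 1 untreated array left out, they reached down to 0.744 (without KO replicate A) and up to 1.782 (without WT replicate C). With 1 irradiated array left out, they reached down to 0.729 (without WT replicate A at 30 min) and up to 1.874 (without WT replicate B at 120 min). Both of the latter fits leave 1 array in that group.

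Values are deposited intensities on a linear scale, and changes were taken as log2(value + 32), a scale that shrinks the changes of low values. Levels of different probe sets are not compared with each other, because each probe set has its own hybridisation efficiency. Precision is limited by the number of arrays, and the median SE over all tested probe sets was 0.232 for 2 irradiated against 3 untreated arrays of a genotype and 0.254 for KO against WT at 1 of the times after IR. The limit of detection used here is each array's 40th percentile, which lay between 38.6 and 55.5. The 19 probe sets for bacterial and yeast genes, which the mouse RNA should not light up, exceeded this limit in 15 of 266 values, or 5.64%. The highest such control on an array ranged from 28.7 to 100.3, so a single value slightly above the limit does not establish a transcript.

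One array stands apart. Replicate A of KO at 30 min had a median correlation of 0.9237 with the other arrays, against 0.9461 to 0.9652 for the other arrays. It held the lowest of the 14 values for 15.2% of tested probe sets and the highest for 17.46%, and its Gapdh 3' to 5' signal ratio of 1.0701 was the highest. Results that rest on it are given with and without it. As for tissue, 8 of 12 measured B cell markers, 4 of 14 T cell markers and 8 of 10 macrophage markers were above the limit on all 14 arrays, while Cd8a was under it on every array. All 8 measured salivary gland markers were above it on all arrays too, with summed levels of 49637 to 87837, so the RNA is not from lymphoid cells alone. In such bulk RNA, fewer cells of a type and less RNA per cell cannot be told apart.

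Of the 168 member values, 100 were above their array's limit. Rad50, Chek2 and H2ax were above it on all 14 arrays, and Nbn and Rad17 on 13. Hus1 92504_at and Rad1 were above it on 8 arrays, Trp53bp1 on 7, Chek1 on 6, Atm on 2 and Hus1 92503_at on 1. Hus1 92505_g_at was under it on all 14. A probe set was tested when it was above the limit on at least 2 arrays, which kept 10 of the 12 member probe sets and at least 1 for each of the 10 genes. The arrays differed in how many of the 12 members they detected, between 5 on KO replicate A at 30 min and 9 on KO untreated replicate B and KO replicate A at 120 min.

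**Figure D1:**
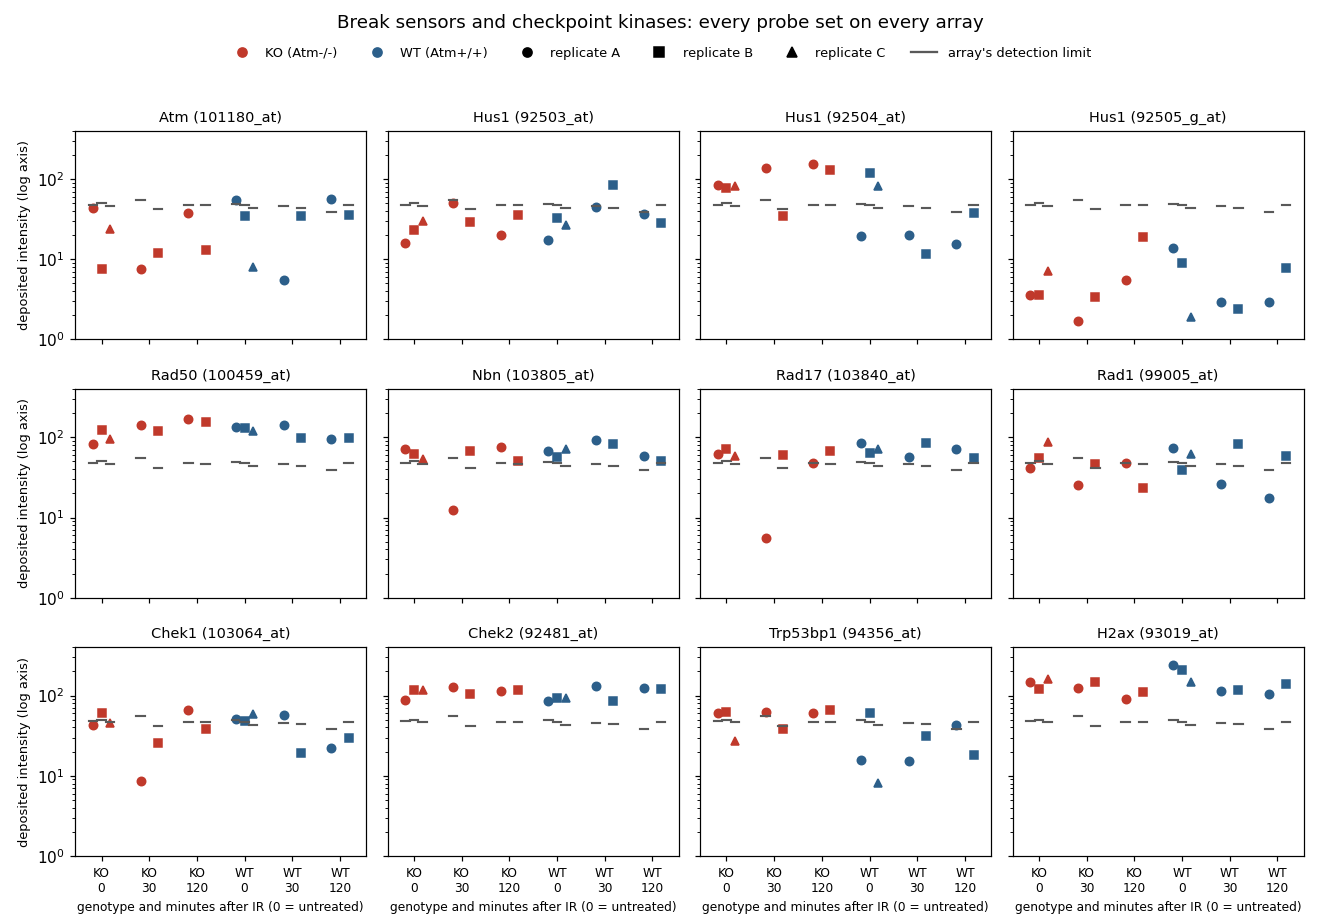
Each panel is 1 member probe set, with deposited intensity on a log axis against genotype and minutes after IR (0 = untreated). Each point is 1 array, KO in red left of WT in blue, and the short grey bars are each array's detection limit; Rad50, Chek2 and H2ax lie above the bars on all 14 arrays, while Hus1 92505_g_at lies under them throughout.

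Over the 4 responses to IR, the counts of called members stood beside low backgrounds. In KO at 30 min, 0 of 10 tested members were called, with 0.0% of all probe sets called (0 of 8916 by limma, with 750 at an unadjusted p under 0.05). In KO at 120 min 0 members were called, again with a background of 0.0% (0 by limma, with 644 at an unadjusted p under 0.05). In WT at 30 min 0 members were called against 0.101% of all probe sets, and in WT at 120 min 0 against 0.505%. At an unadjusted p under 0.05, 1 member stood out in KO at 30 min (background 8.41%; 0 members without KO replicate A at 30 min), 1 in KO at 120 min (7.22%), 2 in WT at 30 min (5.02%) and 1 in WT at 120 min (8.62%). With 10 members tested a share moves in steps of 10%, so these counts were not read as a result about the members.

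For KO against WT, 0 members were called in untreated tissue (background 0.0%, 0 probe sets by limma with 487 at an unadjusted p under 0.05), 0 at 30 min (0.101%), 0 at 120 min (0.258%) and 0 in the mean of the 3 conditions (0.168%). At an unadjusted p under 0.05 there were 0 members in untreated tissue (background 5.46%), 3 at 30 min (6.74%), 2 at 120 min (7.21%) and 2 in the mean (6.45%). The 3 at 30 min are Hus1, Nbn and Rad17, and without KO replicate A at 30 min none of them had an unadjusted p under 0.05. For the KO response minus the WT response, 0 members were called at 30 min (0.0785%) and 0 at 120 min (0.135%), with 0 (background 5.59%) and 1 (6.99%) at an unadjusted p under 0.05. For the mean response of both genotypes, 0 were called at 30 min (0.0897%) and 0 at 120 min (0.213%), with 2 (8.17%) and 1 (9.12%) at an unadjusted p under 0.05. The F test for any difference among the 6 groups called 0 members against 0.292% of all probe sets, and 2 members, Hus1 and H2ax, had an unadjusted p under 0.05 against 8.02%. These comparisons share arrays and are not independent of each other.

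As a group, the tested members had a median log2 change of -0.226 in KO at 30 min and 0.038 in KO at 120 min, against -0.010 and -0.002 over all tested probe sets. It was -0.072 in WT at 30 min and -0.182 in WT at 120 min, against 0.001 and -0.005 over all. These medians depend on single arrays. Without KO replicate A at 30 min the one in KO at 30 min was -0.018, against 0.011 over all probe sets, and over all 14 arrays left out in turn it ranged from -0.368 to -0.018. The range was -0.049 to 0.210 in KO at 120 min, -0.209 to 0.076 in WT at 30 min and -0.265 to -0.102 in WT at 120 min. Taken without sign, the median change of members in KO at 30 min was 0.329, against 0.195 over all, but 0.144 against 0.191 without KO replicate A at 30 min. It was 0.180 against 0.181 in KO at 120 min, 0.234 against 0.168 in WT at 30 min and 0.349 against 0.190 in WT at 120 min. With each array left out in turn these ranged from 0.143 to 0.309, from 0.158 to 0.396 and from 0.253 to 0.536. Changes taken without sign grow with their error. The SE of a member's response ran from 0.174 to 0.416. Only for Rad50, Chek2 and H2ax was it under 0.232, the median over all tested probe sets. The larger member medians were therefore not read as a larger response.

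**Figure D2:**
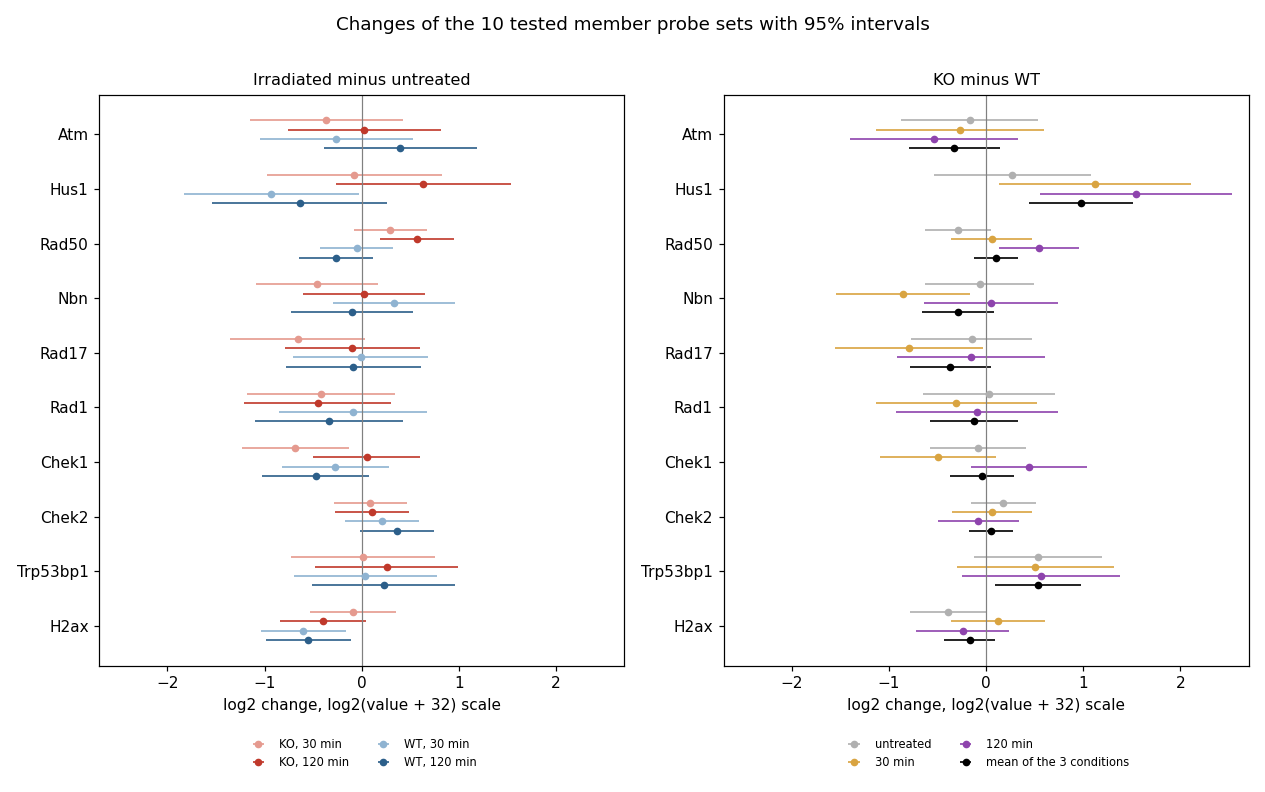
Log2 changes of the 10 tested member probe sets with 95% intervals from limma, for irradiated minus untreated arrays (left, KO in reds and WT in blues) and KO minus WT (right). Most intervals span 0, and those of Chek2 and Rad50 are the shortest; no member passed the adjusted threshold.

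Atm encodes the kinase that starts the response and is the gene disrupted in KO. Probe set 101180_at read 44.0, 7.5 and 24.0 on untreated KO arrays A, B and C, 7.5 and 11.8 at 30 min and 37.3 and 13 at 120 min. On WT arrays it read 54.8, 34.5 and 8.1 untreated, 5.5 and 34.2 at 30 min and 55.9 and 36.1 at 120 min. All KO values were under the limit, and only 2 WT values were above it, so both genotypes overlapped at the level of background. KO minus WT in the mean of the 3 conditions came to -0.33 ± 0.22, with an adjusted p of 0.864 by limma. The sources used here do not say which part of the transcript the probe set reads or which part the disruption removes. The values therefore give no check of the genotype labels.

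Rad50, the ATPase of the MRN complex, read 83.4, 122.3 and 94.1 on untreated KO arrays, 141.7 and 118.5 at 30 min and 167.5 and 154.0 at 120 min. WT arrays gave 133.0, 130.8 and 121.2 untreated, 144.5 and 97.4 at 30 min and 96.3 and 98.5 at 120 min. Both KO arrays at 120 min, the 2 highest of all 14, do not overlap with the untreated KO arrays. In WT the arrays at 120 min lie below the untreated WT arrays without overlap. The share of all tested probe sets with such non-overlap is not given here, so it is not read as particular to Rad50 or to the members below. The group means ran in the order KO at 120 min (160.8 ± 9.5), KO at 30 min (130.1 ± 16.4), WT untreated (128.3 ± 6.3), WT at 30 min (121.0 ± 33.3), KO untreated (99.9 ± 20.1) and WT at 120 min (97.4 ± 1.6; SD, 2 or 3 arrays each). The first 2 differ by more than the larger of their SDs, and the other neighbours do not.

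The Rad50 change at 120 min was 0.57 ± 0.17 in KO, a fold of 1.480 with a 95% interval of 1.139 to 1.923, and -0.27 ± 0.17 in WT, with adjusted p of 0.597 and 0.732 by limma. The difference of the 2 responses was 0.83 ± 0.25, with an adjusted p of 0.436. KO minus WT was 0.54 ± 0.19 at 120 min, with an adjusted p of 0.477. At 30 min the change was 0.29 ± 0.17 in KO and -0.05 ± 0.17 in WT, with adjusted p of 0.672 and 0.997. Summed marker levels differed between the same groups. The sum of the 12 measured B cell markers was 2393 to 3302.5 in KO at 120 min and 1960.8 to 2535.7 in untreated KO, against 1378.8 to 1486.6 in WT at 120 min and 2214.3 to 2967.5 in untreated WT. The salivary gland sum was 77607 to 81935 in KO at 120 min and 49637 to 65494 in untreated KO, against 59925 to 69173 in WT at 120 min and 58948 to 64531 in untreated WT, with no overlap between KO at 120 min and any of the other 3 groups. The T cell sum was 1006.4 to 1176.0 in KO at 120 min and 840.0 to 1083.2 in untreated KO, against 778.1 to 798.3 in WT at 120 min and 1114.6 to 1220.3 in untreated WT. The macrophage sum was 2831.3 to 3964.7 in KO at 120 min and 2676.2 to 3007.1 in untreated KO, against 2298.6 to 2554.8 in WT at 120 min and 2622.5 to 2923.1 in untreated WT. All 4 sums were thus higher in KO than in WT at 120 min without overlap, while the skeletal muscle sum was lower (701.7 to 2712.3 in KO, against 2834.3 to 2860.2 in WT). In untreated tissue the skeletal muscle sum was 2660.0 to 8847.4 in KO and 867.1 to 2493.1 in WT, also without overlap. The part of these marker sums in the values of Rad50 or of any other gene was not tested.

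Nbn, the MRN subunit that brings Atm to the break, read 70.6, 61.1 and 54.4 on untreated KO arrays, 12.4 and 66.9 at 30 min and 75.6 and 50.4 at 120 min. On WT arrays it read 67.5, 56.8 and 71.4 untreated, 91.8 and 82.4 at 30 min and 58.8 and 51.0 at 120 min. A single value, on KO replicate A at 30 min, lies far under the others, and the 2 WT arrays at 30 min are the 2 highest. KO minus WT at 30 min was -0.85 ± 0.32, with an adjusted p of 0.698 by limma. Without KO replicate A at 30 min it was -0.22 ± 0.23, with an adjusted p of 0.998, and without replicate B of that group it was -1.49 ± 0.23, with an adjusted p of 0.017. Nbn differed by 0.33 ± 0.29 between WT at 30 min and untreated WT, with an adjusted p of 0.982, and by -0.10 ± 0.29 at 120 min, with an adjusted p of 0.957.

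Rad17, which loads the checkpoint clamp, read 61.5, 71.1 and 59.1 on untreated KO arrays, 5.6 and 60.2 at 30 min and 47.5 and 67.3 at 120 min. Readings in WT were 86.0, 64.7 and 70.6 untreated, 57.1 and 84.4 at 30 min and 70.7 and 55.8 at 120 min. As with Nbn, the low value is on KO replicate A at 30 min, and all other values lie between 47.5 and 86.0. KO minus WT at 30 min was -0.80 ± 0.35, with an adjusted p of 0.714 by limma. It was -0.09 ± 0.26 without that array, with an adjusted p of 0.998, and -1.51 ± 0.25 without replicate B of that group, with an adjusted p of 0.0206. The 95% intervals of its 4 responses to IR covered folds of 0.391 to 1.603, and 0.699 to 1.493 without KO replicate A at 30 min. With other arrays left out they reached down to 0.268 (without KO replicate B at 30 min) and up to 2.142 (without WT replicate A at 30 min). Each of these fits leaves 1 array in the group concerned.

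Rad1, a subunit of the clamp, read 42.0, 55.0 and 88.3 on untreated KO arrays, 25.6 and 46.8 at 30 min and 47.9 and 23.2 at 120 min. On WT arrays it read 73.6, 39.1 and 62.3 untreated, 26.3 and 82.4 at 30 min and 17.3 and 58.5 at 120 min. KO and WT arrays overlap in each of the 3 conditions, and both genotypes spread widely. The 4 responses to IR ran from -0.45 to -0.09 on the log2 scale, each with a standard error of 0.35. The mean response of both genotypes at 120 min was -0.40 ± 0.25, with an adjusted p of 0.665 by limma.

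Hus1, another subunit of the clamp, has 3 probe sets that disagree. Probe set 92504_at read 85.5, 78.1 and 82.2 on untreated KO arrays, 136.4 and 34.9 at 30 min and 156.2 and 129.1 at 120 min. In WT it stood at 19.7, 120.6 and 81.1 untreated, 20.3 and 11.7 at 30 min and 15.6 and 37.5 at 120 min. Both KO arrays at 120 min are high and all 4 irradiated WT arrays are under the limit, while the untreated groups overlap, and WT replicate A is the lowest array among them. The group means ran in the order KO at 120 min (142.7 ± 19.2), KO at 30 min (85.7 ± 71.8), KO untreated (81.9 ± 3.7), WT untreated (73.8 ± 50.8), WT at 120 min (26.6 ± 15.5) and WT at 30 min (16 ± 6.1; SD, 2 or 3 arrays each). Each neighbour in that order lies within the larger SD of the pair.

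For 92504_at, KO minus WT was 0.27 ± 0.37 in untreated tissue, 1.12 ± 0.46 at 30 min, 1.54 ± 0.46 at 120 min and 0.98 ± 0.25 in the mean of the 3 conditions. The adjusted p-values by limma were 0.989, 0.698, 0.340 and 0.288. Both WT arrays at 120 min were under the limit. With their values set to their arrays' limits, the KO geometric mean at 120 min was 3.323 times that of WT for this probe set. That ratio of deposited intensities has no error attached and is not a lower bound. The limma fold at 120 min was 2.913, with an interval of 1.47 to 5.772. Without KO replicate A at 30 min, the array that stands apart, the difference at 30 min was 0.54 ± 0.50 and the mean difference 0.78 ± 0.24, with adjusted p of 0.998 and 0.638. The response of KO at 120 min was 0.63 ± 0.42 and that of WT -0.64 ± 0.42, and the difference of the 2 responses was 1.27 ± 0.59, with an adjusted p of 0.707. The 5 marker sums given with Rad50 separate the same 2 groups at 120 min, and their part in the Hus1 values was not tested.

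The other 2 Hus1 probe sets did not pass the filter and have no test. Probe set 92503_at read 16, 23.0 and 30.0 on untreated KO arrays, 49.8 and 29.0 at 30 min and 19.8 and 35.2 at 120 min, against 17.3, 32.4 and 26.7 on untreated WT arrays, 45.5 and 83.8 at 30 min and 37.1 and 28.0 at 120 min. Its highest value is on WT replicate B at 30 min, the array on which 92504_at is lowest. Probe set 92505_g_at, which the annotation ties to the same source transcript as 92504_at, read between 1.7 and 18.7 on KO arrays and between 1.9 and 13.7 on WT arrays. It stayed under the limit throughout, also on the KO arrays where 92504_at was high.

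**Figure D3:**
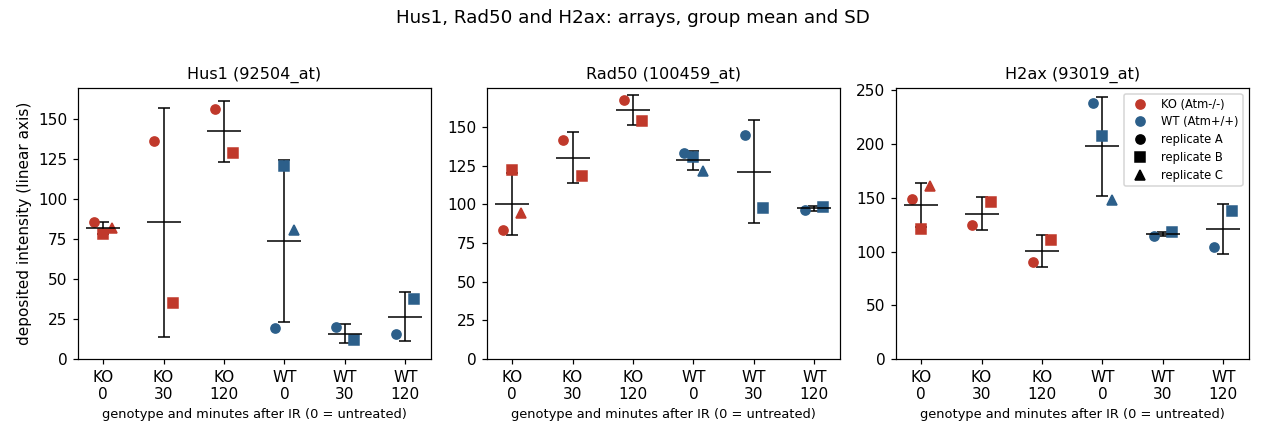
Deposited intensity on a linear axis for Hus1 92504_at, Rad50 and H2ax, with 1 point per array, a horizontal line at each group mean and bars of 1 SD (2 or 3 arrays), KO left of WT. Rad50 is highest on the 2 KO arrays at 120 min (154.0 and 167.5), H2ax is lower on all 4 irradiated WT arrays than on the 3 untreated ones, and Hus1 is at 37.5 or less on all 4 irradiated WT arrays.

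Chek1, the kinase of the single-strand branch, read 42.4, 60.3 and 44.9 on untreated KO arrays, 8.7 and 25.9 at 30 min and 66.1 and 37.8 at 120 min. On WT arrays it read 51.1, 47.7 and 58.6 untreated, 58.0 and 19.1 at 30 min and 22.5 and 29.7 at 120 min. Both KO arrays at 30 min and both WT arrays at 120 min lie below the untreated arrays of their genotype, and all 4 of these values are under the limit. The change was -0.68 ± 0.25 in KO at 30 min and -0.47 ± 0.25 in WT at 120 min, with adjusted p of 0.511 and 0.652 by limma. With the WT values at 120 min set to their arrays' limits, the geometric mean of untreated WT was 1.223 times that of WT at 120 min. That ratio has no error attached and does not establish a decrease. The limma fold in WT at 120 min was 0.72, with an interval of 0.492 to 1.053 that includes no change. The untreated WT values of 51.1, 47.7 and 58.6 stood against limits of 49.5, 47.5 and 43.44. Without KO replicate A at 30 min the KO change at 30 min was -0.36 ± 0.29. Changes in the other groups were 0.05 ± 0.25 in KO at 120 min and -0.27 ± 0.25 in WT at 30 min.

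Chek2, the kinase that Atm activates directly, read 89.3, 116.8 and 117.3 on untreated KO arrays, 128.4 and 105.3 at 30 min and 114.6 and 117.4 at 120 min. WT arrays gave 84.8, 94.0 and 94.4 untreated, 132.5 and 85.1 at 30 min and 123.0 and 120.4 at 120 min. Both WT arrays at 120 min lie above the untreated WT arrays without overlap, while the KO groups overlap. The change at 120 min was 0.10 ± 0.17 in KO and 0.36 ± 0.17 in WT, with adjusted p of 0.937 and 0.608 by limma, and the difference of the 2 responses was -0.26 ± 0.25. KO minus WT in the mean of the 3 conditions was 0.05 ± 0.10, a fold of 1.038 with a 95% interval of 0.888 to 1.213.

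H2ax, the histone variant phosphorylated at breaks, read 148.7, 120.6 and 161.1 on untreated KO arrays, 124.6 and 146.0 at 30 min and 90 and 111.1 at 120 min. On WT arrays it read 238.1, 207.9 and 147.7 untreated, 114.8 and 117.9 at 30 min and 104.3 and 137.6 at 120 min. All 4 irradiated WT arrays lie below all 3 untreated WT arrays, and both KO arrays at 120 min lie below the untreated KO arrays, while those at 30 min overlap with them. The Gapdh 3' to 5' signal ratio followed the same pattern. It was 0.8666 to 0.9761 in untreated KO, 0.9697 to 1.0701 in KO at 30 min and 0.777 to 0.8572 in KO at 120 min, and 0.9017 to 1.0066 in untreated WT, 0.8505 to 0.8897 in WT at 30 min and 0.7234 to 0.8908 in WT at 120 min. Its part in the H2ax values, and that of the marker sums given with Rad50, was not tested. The group means ran in the order WT untreated (197.9 ± 46.0), KO untreated (143.5 ± 20.8), KO at 30 min (135.3 ± 15.1), WT at 120 min (121.0 ± 23.5), WT at 30 min (116.4 ± 2.2) and KO at 120 min (100.6 ± 14.9; SD, 2 or 3 arrays each). In that order WT untreated exceeds KO untreated by slightly more than its SD, the lowest pair differ by slightly more than the SD of KO at 120 min, and the other neighbours lie within the larger SD of the pair.

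The H2ax change at 30 min was -0.09 ± 0.20 in KO and -0.60 ± 0.20 in WT, and at 120 min -0.40 ± 0.20 in KO and -0.55 ± 0.20 in WT. The adjusted p-values by limma were 0.926, 0.827, 0.723 and 0.480. As folds, WT was at 0.659 with a 95% interval of 0.486 to 0.894 at 30 min and at 0.683 with an interval of 0.504 to 0.927 at 120 min. With each array left out in turn, the WT log2 change ranged from -0.76 to -0.475 at 30 min and from -0.71 to -0.41 at 120 min. Without untreated WT replicate A, the unadjusted p at 120 min by limma was no longer under 0.05. In the mean of both genotypes the change at 120 min was -0.47 ± 0.14, with an adjusted p of 0.355. The KO and WT responses differed by 0.51 ± 0.29 at 30 min and 0.15 ± 0.29 at 120 min, with adjusted p of 0.869 and 0.958, so no difference between the genotypes was shown, nor was its absence.

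Trp53bp1, the adaptor that reads the chromatin around a break, was read at 60.8, 61.9 and 27.3 on untreated KO arrays, 62.4 and 38.1 at 30 min and 60.4 and 65.7 at 120 min. Readings in WT were 15.8, 60.5 and 8.1 untreated, 15.3 and 31.3 at 30 min and 42.9 and 18.1 at 120 min. KO arrays were above the limit on 5 of 7 arrays and WT arrays on 2 of 7, and 3 of the 7 WT values lie within the KO range of 27.3 to 65.7. Within a condition the genotypes overlap in untreated tissue, through WT replicate B, and not at 30 or 120 min. KO minus WT was 0.53 ± 0.30 in untreated tissue, 0.51 ± 0.37 at 30 min, 0.57 ± 0.37 at 120 min and 0.54 ± 0.20 in the mean, with adjusted p of 0.969, 0.802, 0.837 and 0.700 by limma. The response to IR was small in both genotypes beside its error: 0.01 ± 0.34 at 30 min and 0.26 ± 0.34 at 120 min in KO, and 0.04 ± 0.34 and 0.22 ± 0.34 in WT.

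**Figure D4:**
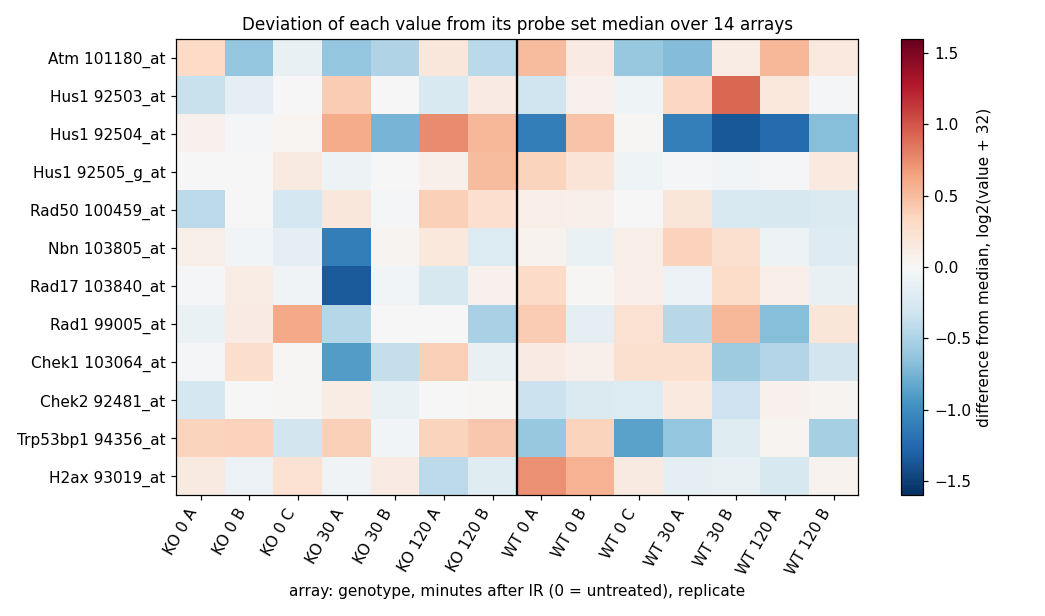
Colour shows how far each array's value lies from the probe set's median over 14 arrays, on the log2(value + 32) scale (red above, blue below), with KO arrays left of the black line and WT arrays right of it. Nbn, Rad17 and Chek1 share a dark blue cell on KO replicate A at 30 min, and Hus1 92504_at is blue on all 4 irradiated WT arrays.

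The low values on KO replicate A at 30 min were shared by several members. Of the 12 member probe sets, 4 had their lowest value of all 14 arrays there. These were Nbn, Rad17 and Chek1 among the tested ones, and Hus1 92505_g_at, which was not tested and stayed under the limit throughout. Of all tested probe sets, 15.2% had their lowest value there, and the member count was not tested against that share. On the other 13 arrays Nbn lay between 50.4 and 91.8 and Rad17 between 47.5 and 86.0. The direction of the KO change at 30 min turned without this array, to 0.18 for Nbn and 0.05 for Rad17, both with an adjusted p of 0.9995 by limma.

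Promoter sequences were at hand for 7 of the 10 genes (RefSeq, GRCm38.p6), each from 250 bases before to 50 bases after the annotated start. They are shown for Hus1, the member with the smallest adjusted p, and for both checkpoint kinases, so that the start regions behind these readings can be seen. Capitals mark matches to motifs that were chosen after the sequences were seen, and a match is only a match of letters. The Hus1 window, chr11:9011142-9011441 on the minus strand, holds the GC box letters GGGCGG at positions 171 to 176 and 203 to 208, letters found on either strand in 35.66% of 32851 promoter windows. The Chek1 window, chr9:36726609-36726908 on the minus strand, holds the E2F letters GGCGGGAA at positions 293 to 300, and these or TTTGGCGC occur on either strand in 2.68% of windows. The Chek2 window, chr5:110839733-110840032 on the plus strand, holds the CCAAT box on its other strand (ATTGG) at positions 65 to 69 and 225 to 229, against 37.41% of windows with CCAAT on either strand. A p53 half-site, searched for by its consensus and present in 8.36% of windows, matched none of the 7 genes.
Hus1: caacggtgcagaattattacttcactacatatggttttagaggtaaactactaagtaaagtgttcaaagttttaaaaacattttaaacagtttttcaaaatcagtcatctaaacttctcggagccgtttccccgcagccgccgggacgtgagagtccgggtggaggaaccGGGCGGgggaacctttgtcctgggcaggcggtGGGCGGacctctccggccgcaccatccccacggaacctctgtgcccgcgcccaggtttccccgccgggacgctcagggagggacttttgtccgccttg
Chek1: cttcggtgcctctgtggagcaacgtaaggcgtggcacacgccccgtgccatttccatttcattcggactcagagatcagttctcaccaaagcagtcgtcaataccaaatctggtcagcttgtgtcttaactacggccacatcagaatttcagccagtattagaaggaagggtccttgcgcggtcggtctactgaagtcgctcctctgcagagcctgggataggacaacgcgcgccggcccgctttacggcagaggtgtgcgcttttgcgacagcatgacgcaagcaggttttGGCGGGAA
Chek2: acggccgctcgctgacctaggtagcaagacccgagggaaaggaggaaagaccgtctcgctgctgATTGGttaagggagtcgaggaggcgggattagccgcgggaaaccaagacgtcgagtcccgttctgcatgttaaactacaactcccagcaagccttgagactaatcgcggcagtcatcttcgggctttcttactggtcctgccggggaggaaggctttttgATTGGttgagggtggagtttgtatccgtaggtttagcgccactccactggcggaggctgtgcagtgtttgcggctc

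The other genes of the pathway gave a similar picture, with 1 exception. The lists covered PI3K-like kinases, the MRN complex with its partners, and the clamp with its loader and the single-strand binding protein RPA. They also covered chromatin mediators, checkpoint effectors and p53 regulators. Besides the members they held 31 measured genes, of which 25 were tested. Cdkn1a, the cyclin-dependent kinase inhibitor induced by p53, was the only one called in any of the 12 comparisons. It rose in WT at 120 min and in the mean of both genotypes at 120 min. It read 67.2, 91.5 and 81.7 on untreated KO arrays and 194.1 and 177.5 at 120 min, against 52.0, 32.3 and 7.1 on untreated WT arrays and 342.9 and 318.1 at 120 min. Of the untreated WT values, 32.3 and 7.1 were under their arrays' limits of 47.5 and 43.44, so the WT change starts near background. The Cdkn1a change at 120 min was 0.99 ± 0.26 in KO and 2.60 ± 0.26 in WT, with adjusted p of 0.488 and 0.000441 by limma. A change of the size seen in WT could thus be called on these arrays. The difference of the 2 responses was -1.61 ± 0.37, with an adjusted p of 0.219.

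Of the 25 other genes, 17 had a positive and 8 a negative change in KO at 120 min, with a median of 0.145, and 9 had a positive and 16 a negative change in WT at 120 min, with a median of -0.068. KO minus WT at 120 min was positive for 18 and negative for 7, with a median of 0.183, while over all tested probe sets it was -0.003. None of these counts was tested, and no gene but Cdkn1a passed. Mdm2, the p53 ubiquitin ligase, had a change of 0.94 ± 0.34 in KO and 1.07 ± 0.34 in WT at 120 min, with adjusted p of 0.645 and 0.368 by limma. Prkdc, the catalytic subunit of DNA-PK, was at 0.93 ± 0.31 in KO and -0.19 ± 0.31 in WT, with adjusted p of 0.607 and 0.916 by limma. Its untreated KO values of 12.2, 10.2 and 24.6 were all under the limit, and it read 58.7 and 56.4 in KO at 120 min. Rnf8, the ubiquitin ligase that acts between H2ax and Trp53bp1, was at 0.63 ± 0.18 in KO and -0.07 ± 0.18 in WT, with adjusted p of 0.587 and 0.952.

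Among further genes named by the same rule, Rpa2, a subunit of RPA, had a change of 0.81 ± 0.36 in KO and 0.42 ± 0.36 in WT at 120 min. Rpa2 was above the limit only on KO replicate A at 120 min (78.3) and WT replicate B at 30 min (49.8), so these changes lie mostly within background. Cdk1, the mitotic kinase, had a change of -0.16 ± 0.39 in KO and -0.88 ± 0.39 in WT. Cdc25a, a phosphatase that Chek1 and Chek2 mark for degradation, had one of -0.30 ± 0.15 in KO and -0.32 ± 0.15 in WT. Each list gene was read from its probe set with the highest mean. By that choice of probe set, Mre11a of the MRN complex, Rad9a of the clamp, Tipin, Brca1 and Bard1 were under the limit on all 14 arrays. Of 12 tested proliferation markers 0 were called in any of the 12 comparisons by limma. Their median change at 120 min was 0.049 in KO and -0.125 in WT.

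The genes whose values ran most like a member's over the 14 arrays are a description only, because all arrays share their groups and their scaling. For Rad50 they were Fli1, Laptm5 and Rbm38, with Pearson correlations of 0.827, 0.817 and 0.805, and for H2ax they were Spout1, Rnf123 and Rab7, at 0.834, 0.825 and 0.806. For Chek2 they were Ptms, Clcn4 and Ihh, at 0.846, 0.819 and 0.794. For Nbn the closest was Nsun4 at 0.947 and for Rad17 it was Itgb1bp1 at 0.969, followed by Pole4 and 4930453N24Rik for Nbn and by Arl3 and Cyp4v3 for Rad17. Without KO replicate A at 30 min the correlation of Nbn with Nsun4 was 0.810 and that of Rad17 with Itgb1bp1 was 0.885 over 13 arrays, and that of Rad17 with Arl3 was 0.597 in place of 0.939.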

How the data were processed

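Expression was read from 14 arrays in 6 groups, and the titles gave each array its group, time and replicate letter. What the authors deposited is 1 linear intensity for each probe set on each array; the sources used here do not name the software. Trimmed of the highest and lowest 2%, every array averaged 150.07 to 150.09, so the arrays were scaled before deposit. The 66 control probe sets were left out, 32 was added, and log2 values were quantile normalized. Probe sets above their array's 40th percentile on at least 2 arrays were fitted in R 4.3.3 with limma 3.58.1 as 6 group means over all 14 arrays (8 residual and 4.555 prior degrees of freedom). Two-sided moderated tests were adjusted by Benjamini-Hochberg over 8916 probe sets, and an adjusted p under 0.05 was a call. The steps were tested on simulated data. Tables and plots used Python 3.11.15, pandas 2.3.3, numpy 2.4.6 and matplotlib 3.10.9.

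Gene names come from the platform annotation, in which 396 probe sets name several genes and 1193 name none. The members and lists were chosen with earlier results of these data known. The genes named are every member probe set, the 3 genes of each pathway list with the largest absolute change at 120 min averaged over genotypes, any called list gene, and the 3 probe sets of named genes most correlated with each member above the limit on at least 12 arrays. Named outside this rule are list genes under the limit on every array. Mdm4, Rfc5, Smc3, Ccna2, Mcm2 and Mcm7 were named by the rule and not called in any comparison by limma. Marker lists were of B cells, T cells, macrophages, salivary gland and skeletal muscle, and the summed level of the last was 701.7 to 8847.4. Over 31 pairs of arrays with the same letter, deviations from the group means correlated at -0.121 to 0.0849, so the letters were not treated as pairs. Alternatives were other offsets, normalizations, filters, sample sets, array weights, an intensity trend, the replicate letter as a block and leaving out each array.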

Additional observations from a re-analysis of the deposited data

Results flagged for a closer look

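Rad50 was picked out because its arrays at 120 min lay on opposite sides of the untreated arrays in the 2 genotypes: both KO arrays lay above all untreated KO arrays and both WT arrays below all untreated WT arrays. The KO response exceeded the WT response by 0.831 on the log2 scale. By limma's test of that difference over all probe sets its adjusted p was 0.436, so it did not pass. The share of all tested probe sets whose arrays separate in this way is not given here.

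Hus1 probe set 92503_at, which did not pass the filter and has no test, read 83.8 on WT replicate B at 30 min. This is above that array's detection limit and above its highest bacterial or yeast control. It is the only one of the 14 arrays on which 92503_at exceeded the limit.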

How the results depend on the processing

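Over 25 alternative settings, 323 counts of called members were made, and 321 of them were 0. The other 2 were counts of 2, in KO at 30 min against untreated KO and in KO against WT at 30 min, both without KO replicate B at 30 min, so leaving out 1 array gave 0 to 2 called members. The genes were Nbn and Rad17, and the lone remaining array is the one that stands apart, assumed there to vary like the other groups. Of 2928 member changes recomputed, 2857 stayed within 1 SE of the reported value on the same side of the threshold, 61 moved by more, 4 passed the threshold and 6 that had exceeded their SE turned sign. Leaving out 1 array, Chek1 in WT at 30 min ranged from -0.65 without WT replicate A at 30 min to 0.11 without replicate B, and Chek2 in WT at 30 min from -0.014 to 0.42 in the same order. Without KO replicate B or A at 30 min, Nbn in KO at 30 min was -1.09 or 0.18, Rad17 in KO at 30 min -1.37 or 0.050, Rad17 in the difference of responses at 30 min -1.36 or 0.063, and Rad17 in the mean response at 30 min -0.69 or 0.018. With the replicate letter as a block, 0 members were called in each comparison and in the F test, and 5 of 14 arrays correlated best with their own letter. Member values above the limit numbered 63 at the 50th percentile and 132 at the 25th, against 100. Among the members, low signal over background limits Atm, Chek1, Trp53bp1, Rad1 and Hus1 most.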
